A study of Mus musculus with 6 samples.

Results

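The genes described here are the mouse clustered histone genes, the intronless genes named Hist1h, Hist2h, Hist3h or Hist4h that encode the linker histone H1 and the core histones H2A, H2B, H3 and H4. Of the 38924 genes in the count files, 70 carry such a name, and the 61 with 10 or more counts summed over the 6 libraries are the members. They comprise 6 H1, 18 H2A, 15 H2B, 11 H3 and 11 H4 genes, with 49 in the Hist1 cluster, 9 in Hist2, 2 in Hist3 and 1 in Hist4. At the edge of the rule, Hist1h1t and Hist1h4k had 10 counts each and Hist1h2bh, the highest of the 9 genes left out, had 7. Hist1h2aa, Hist1h2ba and Hist2h2ab were listed at 0 in all libraries.

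The study set induced myogenic progenitor cells (iMPC), made by reprogramming mouse fibroblasts toward muscle, beside the muscle's own stem cells. Poly(A)-selected RNA was sequenced from 2 libraries of quiescent satellite cells (QSC, from mouse 1 and mouse 3), 1 of activated satellite cells (ASC, titled as Pax7-positive at p1), 1 each of iMPC sorted as Pax7-nGFP positive and Pax7-nGFP negative, and 1 of mouse embryonic fibroblasts (MEF, number 1). Per the labels, iMPC came from embryonic or tail tip fibroblasts, and expanded cultures were kept without doxycycline in serum-containing medium with basic FGF, forskolin, RepSox and a GSK3 inhibitor. Strain, age, the reprogramming transgene and the medium of the ASC and MEF cultures are not given here, nor whether iMPC were 1 clone or a bulk culture.

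The libraries held 20859611 to 29279686 counts. TMM scaling factors were 0.717 and 0.763 for the QSC libraries and 1.11 to 1.21 for the other 4, and values below are counts-per-million on that scale (CPM) unless stated. Pax7, which defines satellite cells, stood at 34.5 and 160 CPM in QSC from mouse 1 and mouse 3, 19.8 in ASC, 37.8 in Pax7-nGFP+ iMPC, 6.25 in Pax7-nGFP- iMPC and 0 in MEF. The 8 satellite cell markers, Pax7 among them, summed to 5839 and 4251 CPM in QSC and 2450 in ASC. The sum was 2798 CPM in Pax7-nGFP+ iMPC, 1463 in Pax7-nGFP- iMPC and 360 in MEF. Of these markers Calcr was at 0 in ASC. The QSC pair was uneven in markers of other cells: the 7 matched erythroid genes summed to 1300 CPM in mouse 1 and 20.1 in mouse 3, and the 11 endothelial genes to 234 and 50.6. The 11 immune genes summed to 252 and 109 CPM, and the 15 mitosis genes to 265 and 14.8. In the 4 cultured libraries the erythroid sum was 0.547 to 2.95 CPM, with 1 to 4 of the 7 genes at 0.

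Muscle and fibroblast genes also moved with the groups. The 11 genes of terminal muscle differentiation summed to 427 and 42.7 CPM in QSC, 25487 in ASC, 2271 in Pax7-nGFP+ iMPC, 6119 in Pax7-nGFP- iMPC and 49.8 in MEF, and 11, 4 and 10 of them were called higher than QSC in ASC, Pax7-nGFP+ and Pax7-nGFP- iMPC. The 8 fibroblast genes summed to 1024 and 625 CPM in QSC, 629.9 in ASC, 1989 in Pax7-nGFP+ iMPC, 7950 in Pax7-nGFP- iMPC and 15505 in MEF, with 0, 3, 7 and 7 called higher in that order of the last 4 groups. Of all genes tested, 11.3% were called higher than QSC in Pax7-nGFP+ iMPC, 12.1% in Pax7-nGFP- iMPC, 11.8% in ASC and 11.3% in MEF. None of either list was at 0 in any library. Their part in the histone values below was not tested.

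Most histone protein for new DNA comes from these clustered genes, which are transcribed in S phase. Their mRNAs normally end just after a short stem-loop in place of a poly(A) tail. The stem-loop binding protein SLBP holds that end, U7 snRNP and the CPSF subunits cut the transcript beside it, and the mRNA is degraded when DNA synthesis stops. Some clustered genes also make longer, polyadenylated transcripts through a signal downstream of the stem-loop, and these are known in differentiated and resting cells. Poly(A) selection enriches mRNAs that carry a tail, so the values below do not describe the whole histone message. Whether the counted histone mRNAs carried a tail was not tested.

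The 3′ end of a member shows whether the annotated transcript stops at the stem-loop or runs on. The 30 bases around the stem-loop are printed for the genes on which the results turn, 5′ to 3′ with the 16-base stem-loop in capitals, from the GENCODE M21 transcripts (GRCm38) matched by Ensembl identifier.
Hist1h2ao: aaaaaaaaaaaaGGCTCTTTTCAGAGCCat
Hist1h2ap: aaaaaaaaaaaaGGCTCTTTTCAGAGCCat
Hist1h2ae: aaaaaaaacaaaGGCTCTTTTCAGAGCCat
Hist1h2ag: atcgccaacaaaGGCTCTTTTCAGAGCCac
Hist3h2a: acagacaccaaaGGCTCTTTTCAGAGCCac
Hist2h2aa1: agctcctaaaaaGGCTCTTTTCAGAGCCac
Hist1h1c: aacaatccaaaaGGCTCTTTTCAGAGCCac
Hist1h4d: ccaaaaaccaaaGGCCCTTTTCAGGGCCac
Hist1h4h: tacaaaaccaaaGGCCCTTTTCAGGGCCgc
A stem-loop downstream of the stop codon was found in 38 of the 53 members that matched a coding transcript (71.7%). Searched anywhere in the transcript, a looser measure, it was found in 68 of all 21901 coding genes (0.31%). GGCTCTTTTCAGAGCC was the sequence in 22 of those 38 and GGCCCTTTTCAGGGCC, found in H4 genes alone, in 6. Hist1h2ao and Hist1h2ap were the only matched members with a run of 10 or more A between the stop codon and the stem-loop. Each has 12 A directly before the stem. The next longest such run, in Hist1h2ae, is 8. Over the whole transcript, 4 of the 53 matched members (7.55%) held a run of 10 or more A, against 15.8% of all coding genes. Besides the pair these were Hist1h2be (11 A) and Hist1h2ac (15 A), with the run elsewhere in the transcript. In 20 matched members the annotated transcript went on for 100 bases or more beyond the stem-loop, as in Hist1h1c (840 bases), Hist3h2a (1643) and Hist1h4d (770). In 18 it ended within 100 bases, as in Hist1h2ao (31), Hist1h2ap (3), Hist2h2aa1 (35) and Hist1h4h (46). No stem-loop was found in the models of 15 members, among them Hist1h2bc and Hist1h1b, and 8 members had no matched transcript.

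Many members are near-copies of each other, which limits what a count for one gene can mean. Of the 50-base words in the Hist1h2ao transcript 6.5% occur in no other gene, and 93.5% are shared with Hist1h2ap. The share of unique words was 69.5% for Hist1h2bc, 91.5% for Hist1h1c, 68.5% for Hist3h2a, 100% for Hist1h1b and 0% for Hist2h2aa1. The median over the 53 matched members was 46.3%, and 27 had under 50%. How reads that fit several genes were counted is not given in the sources used here, so values of single near-identical genes are uncertain, and Hist1h2ao and Hist1h2ap are also given as a sum.

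Clustered histone genes summed to more CPM in each of the 4 cultured libraries than in either QSC library. The members together reached 157 CPM in QSC from mouse 1 and 167 in QSC from mouse 3. The sum was 389 CPM in ASC, 362 in Pax7-nGFP+ iMPC, 244 in Pax7-nGFP- iMPC and 327 in MEF. Exact 95% counting intervals were narrow beside these gaps: 161 to 172 CPM for the higher QSC library and 239 to 250 for Pax7-nGFP- iMPC, the lowest cultured one. They cover counting error only, and no test was made on a sum over the members. Without Hist1h2ao and Hist1h2ap the order changed: the other 59 members summed to 121 and 164 CPM in QSC, 318 in ASC and 249 in MEF, but to 62.4 in Pax7-nGFP+ iMPC and 105 in Pax7-nGFP- iMPC, both below the QSC libraries. With no TMM factor these 59 summed to 86.9 and 125 counts-per-million in QSC, 73.6 in Pax7-nGFP+ iMPC and 127 in Pax7-nGFP- iMPC, which was then just above both QSC libraries. In counts-per-million with no TMM factor, the sum over all members was 112 and 127 in QSC and 296 to 433 in the cultured libraries.

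The classes did not move together. H2A genes took 88.0% of the member counts in Pax7-nGFP+ iMPC and 69.6% in Pax7-nGFP- iMPC, against 54.3% and 21.5% in QSC from mouse 1 and mouse 3, 44.8% in ASC and 54.1% in MEF. H2B genes summed to 11.5 CPM in Pax7-nGFP+ iMPC and 37.9 in Pax7-nGFP- iMPC, below the 45.5 and 85.2 CPM of QSC, the 117 of ASC and the 85.5 of MEF. In counts-per-million with no TMM factor the H2B sum of Pax7-nGFP- iMPC was 45.9, between the 32.6 and 65.0 of QSC. H1 genes summed to 12.8 and 27.4 CPM in QSC, 81.3 in ASC, 39.4 in MEF, 19.7 in Pax7-nGFP+ iMPC and 25.1 in Pax7-nGFP- iMPC. H3 genes were low everywhere, at 2.06 to 3.62 CPM in QSC and iMPC, 9.004 in ASC and 12.5 in MEF. H4 genes varied least, between 7.28 CPM in ASC and 14.5 in QSC from mouse 3.

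**Figure D1:**
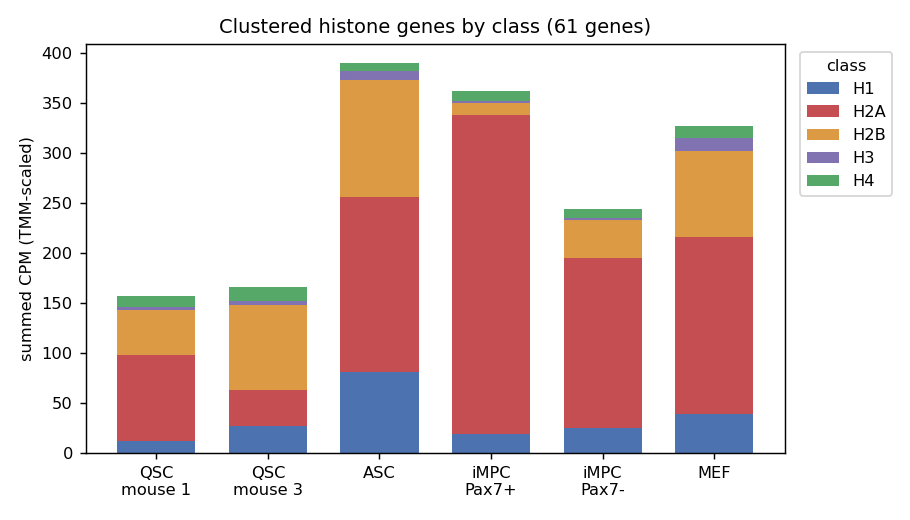
Summed CPM (TMM-scaled, y axis) of the 61 clustered histone genes in each of the 6 libraries (x axis), stacked by histone class; each bar is 1 library, so there is no error bar. H2A makes up 318 of the 362 CPM of Pax7-nGFP+ iMPC, and Hist1h2ao and Hist1h2ap hold 299 of those 318. H2B is 11.5 CPM there, while ASC and MEF hold 117 and 85.5 CPM of H2B.

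Counts were concentrated in a few genes. The 7 members with 1000 or more counts in all held 83.5% of the member counts, and 33 members had under 100. Hist1h2bc, an H2B gene, had the most counts in QSC from mouse 1 (24.9% of the member counts), QSC from mouse 3 (46.5%), ASC (27.2%) and MEF (22% of them). Hist1h2ao, an H2A gene, had the most in Pax7-nGFP+ iMPC (65.4%) and in Pax7-nGFP- iMPC (44.4%). Per length, on the deposited RPKM scale, Hist1h2ao stood at 581 and Hist1h2bc at 12.3 in Pax7-nGFP+ iMPC. In QSC from mouse 1 they stood at 36.6 and 38.0 RPKM, with Hist1h2aj at 32.4. In QSC from mouse 3 the same RPKM levels were 3.02, 80.3 and 2.05.

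**Figure D2:**
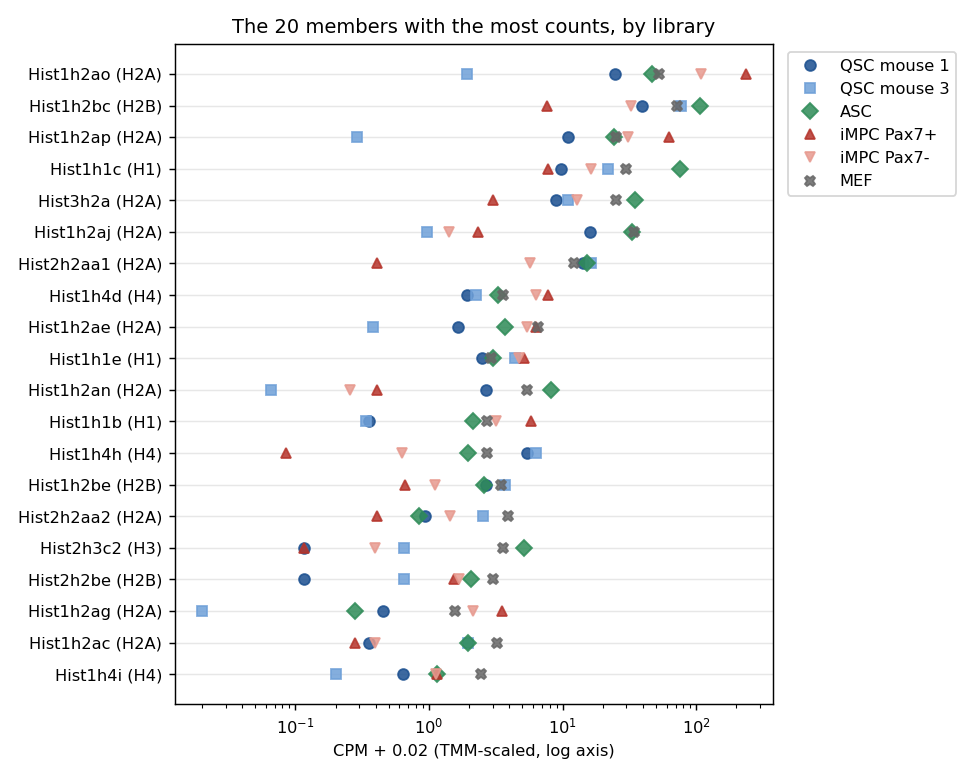
CPM + 0.02 (TMM-scaled, log axis) of the 20 members with the most counts, 1 row a gene and 1 symbol a library; the 0.02 keeps a count of 0 on the axis. The Pax7-nGFP+ iMPC symbol is farthest right for Hist1h2ao (237 CPM) and Hist1h2ap (62.8) and farthest left for Hist1h2bc (7.66), Hist2h2aa1 (0.386) and Hist1h4h (0.0643).

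Among the H2A genes, Hist1h2ao and Hist1h2ap rose in Pax7-nGFP+ iMPC. Hist1h2ao had 24.5 and 1.90 CPM in QSC from mouse 1 and mouse 3, 46.7 in ASC, 237 in Pax7-nGFP+ iMPC, 108 in Pax7-nGFP- iMPC and 53.0 in MEF. All 4 cultured libraries lay above both QSC libraries, and the 2 iMPC libraries were the highest of the 6. The fitted log2 fold change against QSC was 4.16 ± 0.90 (SE) in Pax7-nGFP+ iMPC (edgeR quasi-likelihood test, adjusted p = 0.0038) and 3.04 ± 0.87 in Pax7-nGFP- iMPC (edgeR adjusted p = 0.0222). ASC and MEF gave 1.82 and 2.01 on the log2 scale (edgeR adjusted p = 0.149 and 0.115). Hist1h2ap had 11.0 and 0.271 CPM in QSC, 24.4 in ASC, 62.8 in Pax7-nGFP+ iMPC, 30.8 in Pax7-nGFP- iMPC and 25.2 in MEF. Its log2 fold change was 3.48 ± 1.05 in Pax7-nGFP+ iMPC (edgeR adjusted p = 0.0266) and 2.45 in Pax7-nGFP- iMPC (edgeR adjusted p = 0.110).

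The QSC mice differed on these genes. As a sum, Hist1h2ao and Hist1h2ap had 35.5 CPM (exact 95% counting interval 33.0 to 38.2) in mouse 1 and 2.17 CPM (1.60 to 2.88) in mouse 3. Against mouse 1 alone the log2 difference of Hist1h2ao in Pax7-nGFP+ iMPC was 3.27, and against mouse 3 alone 6.90. The direction was the same against both mice. Mouse 1 was also the library with the higher mitosis, endothelial and erythroid sums given above, and their part in this difference was not tested. With scaling by summed counts alone the adjusted p of Hist1h2ao in Pax7-nGFP+ iMPC was 0.0530, that of Hist1h2ap 0.114 and that of Hist1h2ao in Pax7-nGFP- iMPC 0.0865, so those 3 calls ended there.

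A promoter is printed for the members whose calls and motifs are discussed, as the 150 bases before the RefSeq transcript start (GRCm38.p6), 5′ to 3′ on the gene's strand. Capitals mark matches on either strand to CCAAT, to the TATA box in the form TATAAA, to the octamer ATTTGCAT, or to the H1 box, read as AAACACA.
Hist1h2ao promoter, chr13:21810217-21810366, plus strand: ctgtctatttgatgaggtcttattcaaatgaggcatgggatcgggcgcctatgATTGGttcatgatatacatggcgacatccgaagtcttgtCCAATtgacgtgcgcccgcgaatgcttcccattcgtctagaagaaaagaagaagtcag
Hist3h2a promoter, chr11:58954535-58954684, plus strand: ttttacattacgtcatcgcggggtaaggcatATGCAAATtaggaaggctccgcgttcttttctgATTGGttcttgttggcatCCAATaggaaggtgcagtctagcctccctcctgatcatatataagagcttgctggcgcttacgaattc
Hist2h2aa1 promoter, chr3:96240375-96240524, minus strand: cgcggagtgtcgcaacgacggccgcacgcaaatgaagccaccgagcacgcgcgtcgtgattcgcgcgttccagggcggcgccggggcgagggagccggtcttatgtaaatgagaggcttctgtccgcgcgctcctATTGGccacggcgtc
Hist1h1b promoter, chr13:21780626-21780775, minus strand: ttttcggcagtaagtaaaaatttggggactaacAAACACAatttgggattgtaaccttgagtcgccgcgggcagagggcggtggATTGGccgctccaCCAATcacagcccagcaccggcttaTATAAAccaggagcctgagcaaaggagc
Hist1h1c promoter, chr13:23738657-23738806, plus strand: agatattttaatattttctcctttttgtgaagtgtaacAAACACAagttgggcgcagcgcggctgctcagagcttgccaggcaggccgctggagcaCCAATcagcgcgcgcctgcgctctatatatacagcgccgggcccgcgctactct
Hist1h4d promoter, chr13:23581418-23581567, plus strand: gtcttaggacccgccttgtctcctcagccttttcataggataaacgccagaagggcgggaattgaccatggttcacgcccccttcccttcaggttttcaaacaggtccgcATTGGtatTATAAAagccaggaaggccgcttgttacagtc
In the window from 250 bases before to 50 after the start, CCAAT was found in 47 of 54 matched members (87%) and in 37.9% of all 27025 promoters in the table. TATAAA was found in 29 members (53.7%, against 14.2%). ATTTGCAT was found in 11 (20.4%, against 1.75%), of which 6 were H2A and 5 H2B genes. These are counts of genes and not of separate sites. Neighbours on opposite strands can share a site, as Hist1h2ae and Hist1h2bg do, and Hist1h2ah and Hist1h2bk. AAACACA was found in 7 members (13%, against 7.14%), 5 of them H1 genes out of 6. CCAAT was present in every matched H1, H2A, H2B and H3 promoter but in only 3 of 10 H4 promoters, while 7 of 10 H4 promoters held TATAAA. A match could lie anywhere in that window. Relative to the start, TATAAA was at -32 in Hist1h4d, -137 in Hist1h4i, -127 in Hist1h4n and -128 in Hist1h4m. In Hist1h4j, Hist1h4k and Hist1h4a it was at -2, -16 and 41. Whether these matches act as TATA boxes was not tested. No matches to different motifs overlapped in a member. Hist1h2ao, which rose in Pax7-nGFP+ iMPC, and Hist2h2aa1, which fell there, both hold CCAAT in the printed bases, the former on both strands and the latter on the opposite strand alone (ATTGG).

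Hist2h2aa1, another H2A gene, fell in Pax7-nGFP+ iMPC. It had 14.3 and 16.4 CPM in QSC, 15.3 in ASC, 0.386 in Pax7-nGFP+ iMPC, 5.71 in Pax7-nGFP- iMPC and 12.2 in MEF. QSC, ASC and MEF lay close together, Pax7-nGFP- iMPC below them and Pax7-nGFP+ iMPC far below. The log2 fold change in Pax7-nGFP+ iMPC was -5.30 ± 1.08 (edgeR adjusted p = 0.0025), and this call held with scaling by summed counts alone and with DESeq2. GENCODE M21 gives the names Hist2h2aa1 and Hist2h2aa2 to these loci the other way round, so the sequences above were matched by the files' gene identifiers and the files' names are used. Its copy Hist2h2aa2, with which it shares all its words, had 0.906 and 2.53 CPM in QSC and 0.386 CPM in Pax7-nGFP+ iMPC.

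Hist3h2a and Hist3h2ba are the members of the small Hist3 cluster. Hist3h2a, an H2A gene with a long annotated 3′ end, had 8.96 and 11.0 CPM in QSC, 34.5 in ASC, 2.99 in Pax7-nGFP+ iMPC, 12.8 in Pax7-nGFP- iMPC and 25.0 in MEF. ASC and MEF were above the QSC pair and Pax7-nGFP+ iMPC below it, but no contrast passed the test, with log2 fold changes of 1.79 in ASC (edgeR adjusted p = 0.075) and -1.74 in Pax7-nGFP+ iMPC (edgeR adjusted p = 0.126). Hist3h2ba, the H2B gene beside it, was at 0.0954 to 0.405 CPM in all 6 libraries.

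Hist1h2aj, a further H2A gene, followed Hist1h2ao in some libraries and not in the iMPC. It had 16.02 and 0.9496 CPM in QSC, 32.8 in ASC, 34.1 in MEF, but 2.32 in Pax7-nGFP+ iMPC and 1.38 in Pax7-nGFP- iMPC. For each 100 counts of Hist1h2ao there were 65.4 counts of Hist1h2aj in QSC from mouse 1, 50 counts in QSC from mouse 3 (exact 95% counting interval 28.1 to 86.4), 70.4 in ASC and 64.3 in MEF. In Pax7-nGFP+ iMPC there were 0.979 (0.765 to 1.23) and in Pax7-nGFP- iMPC 1.28 (0.915 to 1.74). Hist1h2an had 10.9, 17.5 and 10.2 counts for each 100 of Hist1h2ao in QSC from mouse 1, ASC and MEF, and 0.163 and 0.218 in the iMPC libraries. In QSC from mouse 3 it had 2.38, from a single count, with an interval of 0.0589 to 14.0 that holds the iMPC values. These ratios were picked out after the values were seen and carry no test. Neither Hist1h2aj nor Hist1h2an passed the test in any contrast with QSC. Both are H2A copies, 80.5% of the words of Hist1h2an also occur in Hist1h2ah, and Hist1h2aj had no matched transcript, so the split of counts among copies is uncertain.

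Hist1h2bc was the H2B gene with the highest level and fell in Pax7-nGFP+ iMPC. It had 39.1 and 77.5 CPM in QSC, 106 in ASC, 7.66 in Pax7-nGFP+ iMPC, 32.7 in Pax7-nGFP- iMPC and 71.9 in MEF. The Pax7-nGFP+ iMPC library was below both QSC libraries, and the Pax7-nGFP- one was also below both, though close to mouse 1. The log2 fold change was -2.93 ± 0.74 in Pax7-nGFP+ iMPC (edgeR adjusted p = 0.0097) and -0.83 in Pax7-nGFP- iMPC (edgeR adjusted p = 0.392). With scaling by summed counts alone the adjusted p in Pax7-nGFP+ iMPC was 0.0840. The next H2B genes by RPKM, Hist1h2bl and Hist1h2bk, ranged from 0.225 to 2.93 CPM and from 0.257 to 1.94 CPM, both highest in ASC, and passed no test.

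Among the linker histones, Hist1h1c (H1.2) rose in ASC and Hist1h1b (H1.5) rose in Pax7-nGFP+ iMPC. Hist1h1c had 9.68 and 21.9 CPM in QSC, 75.0 in ASC, 7.82 in Pax7-nGFP+ iMPC, 16.4 in Pax7-nGFP- iMPC and 30.0 in MEF. ASC was the highest library, MEF next, and Pax7-nGFP+ iMPC the lowest. The log2 fold change in ASC was 2.25 ± 0.66 (edgeR adjusted p = 0.0225), and it was -1.015 in Pax7-nGFP+ iMPC (edgeR adjusted p = 0.332). Hist1h1b had 0.334 and 0.317 CPM in QSC, 2.11 in ASC, 5.82 in Pax7-nGFP+ iMPC, 3.14 in Pax7-nGFP- iMPC and 2.69 in MEF. The QSC mice agreed on this gene, at only 7 counts each, and all 4 cultured libraries were above them. Hist1h1b passed the filter on low counts only through groups where it was high. Its log2 fold change in Pax7-nGFP+ iMPC was 4.14 ± 1.19 (edgeR adjusted p = 0.02001), a call that held with scaling by summed counts alone and with DESeq2, and it was 3.25 in Pax7-nGFP- iMPC (edgeR adjusted p = 0.063). Hist1h1e (H1.4) varied less, from 2.48 CPM in QSC from mouse 1 to 5.15 in Pax7-nGFP+ iMPC, and passed no test.

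**Figure D3:**
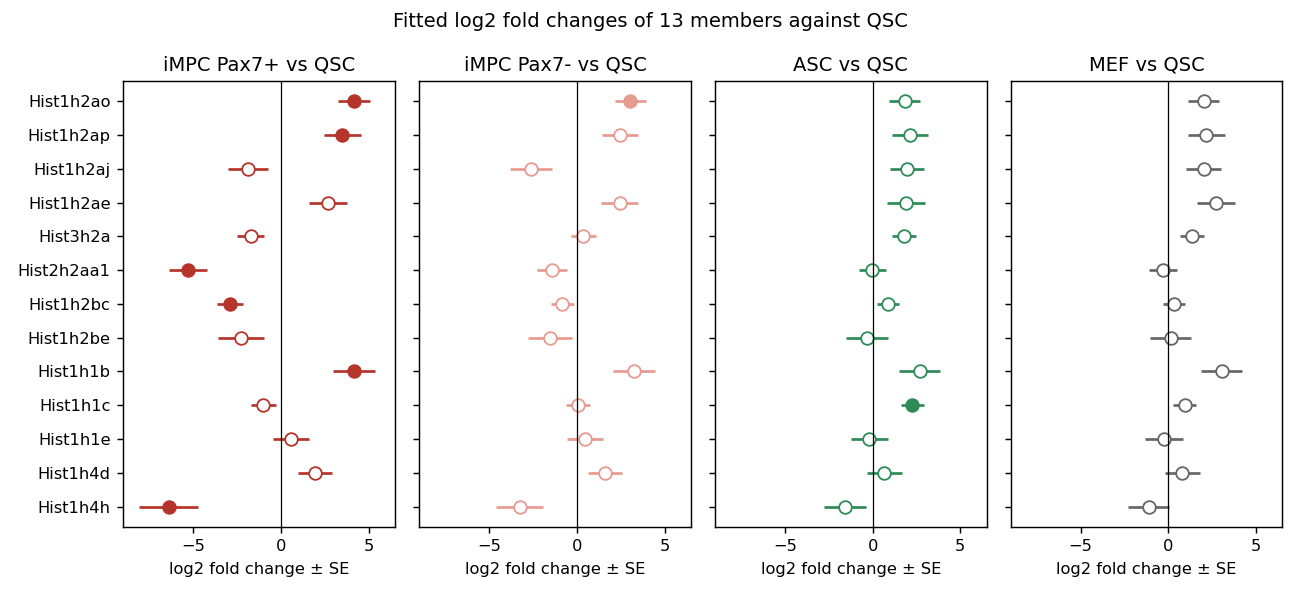
Fitted log2 fold changes against QSC (x axis) with their standard errors for 13 members (rows), 1 panel for each other group; filled points passed the edgeR test (adjusted p under 0.05) and open points did not. Hist1h2ao is filled in both iMPC panels (4.16 and 3.04), Hist2h2aa1 (-5.30) and Hist1h4h (-6.40) only in the Pax7-nGFP+ panel, and Hist1h1c only in the ASC panel (2.25); tests between panels are given with the pairs of single libraries.

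H3 genes that passed the test did so from QSC libraries at or near 0 counts. Hist1h3d had 0 counts in both QSC libraries, 35 in ASC, 19 in Pax7-nGFP+ iMPC, 12 in Pax7-nGFP- iMPC and 59 in MEF. Against a floor of 3 counts over the QSC pair it was at least 21.7-fold higher in ASC (edgeR adjusted p = 0.0197) and at least 31.7-fold higher in MEF (edgeR adjusted p = 0.0135). Hist1h3b had 2 and 0 counts in QSC, 7 in ASC, 11 in Pax7-nGFP+ iMPC, 0 in Pax7-nGFP- iMPC and 73 in MEF, a ratio of 58.8 between MEF and QSC (exact 95% counting interval 15.7 to 494; edgeR adjusted p = 0.0388). An H2A gene and an H2B gene were called in MEF on the same footing: Hist1h2ab, with 0 counts in QSC and 55 in MEF, was at least 29.5-fold higher (edgeR adjusted p = 0.0181), and Hist1h2br, with 0 and 40 counts, at least 21.5-fold higher (edgeR adjusted p = 0.0390). Hist1h2br shares 99.8% of its words with Hist1h2bq. DESeq2 and scaling by summed counts alone ended these calls, apart from Hist1h3d in MEF. With DESeq2 the adjusted p was 0.0587 for Hist1h3d in ASC, 0.0645 for Hist1h2ab and 0.191 for Hist1h3b in MEF, and DESeq2 gave none for Hist1h2br. With scaling by summed counts alone the edgeR adjusted p was 0.0539 for Hist1h3d in ASC, 0.0517 for Hist1h2ab, 0.0619 for Hist1h3b and 0.0675 for Hist1h2br in MEF, while Hist1h3d in MEF stayed under the threshold (0.0474, and 0.0378 with DESeq2). Such genes passed the filter on low counts only through the group where they were high. Hist2h3c2, the H3 gene with the most counts, had 0.0954 and 0.633 CPM in QSC, 5.13 in ASC, 3.55 in MEF, and 0.0965 and 0.372 in the positive and negative iMPC. It passed no contrast with QSC (edgeR adjusted p = 0.054 in ASC). Hist1h3i was at 0 counts in QSC and at 6 to 23 counts in the cultured libraries, and its lowest adjusted p was 0.063 in Pax7-nGFP+ iMPC.

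Among H4 genes, Hist1h4h fell in Pax7-nGFP+ iMPC and no H4 gene rose. Hist1h4h had 5.39 and 6.33 CPM in QSC, 1.94 in ASC, 0.0643 in Pax7-nGFP+ iMPC, 0.608 in Pax7-nGFP- iMPC and 2.69 in MEF. All 4 cultured libraries were below both QSC libraries. The Pax7-nGFP+ value rests on 2 counts, 91.2-fold below QSC with an exact 95% counting interval of 25.0 to 758, and the edgeR adjusted p was 0.0124. With scaling by summed counts alone it was 0.0542. Hist1h4d, the H4 gene with the highest RPKM, had 1.91 and 2.22 CPM in QSC, 3.27 in ASC, 7.75 in Pax7-nGFP+ iMPC, 6.25 in Pax7-nGFP- iMPC and 3.59 in MEF. It was higher in both iMPC libraries than in the other 4, with a log2 fold change of 1.91 in Pax7-nGFP+ iMPC (edgeR adjusted p = 0.175). Hist1h4i ranged from 0.181 CPM in QSC from mouse 3 to 2.43 in MEF. Hist4h4, the only member of its cluster, had 1.29 and 1.81 CPM in QSC and 0.169 to 0.785 in the other libraries, and passed no test.

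Few members passed the test in any contrast. Of the 49 members tested, the median log2 fold change was -0.48 in Pax7-nGFP+ iMPC, 0.25 in Pax7-nGFP- iMPC, 1.43 in ASC and 1.99 in MEF, beside -0.03, 0.15, 0 and 0 over all 17116 genes tested. With genes whose QSC or other group was at 0 set to the bound that 3 counts allow, the median was -0.75 in Pax7-nGFP+ iMPC and stayed at 0.25, 1.43 and 1.99 in the other 3. In Pax7-nGFP+ iMPC 3 of 49 members rose (6.12%) and 3 fell (6.12%), where 11.3% and 9.31% of all genes did. In Pax7-nGFP- iMPC 1 rose (2.04%) and none fell, where 12.1% and 6.57% of all genes did; at an unadjusted edgeR p under 0.05, 8 were higher and 3 lower, and DESeq2 also called none lower. In ASC 2 rose (4.08%) and none fell, where 11.8% and 8.24% of all genes did; at an unadjusted edgeR p under 0.05, 7 were higher and 0 lower, and DESeq2 called none lower. In MEF 4 were called higher (8.16%) and none lower, where 11.3% and 8.03% of all genes were. All 4 in MEF had 0 to 2 counts in each QSC library and passed the filter on low counts only through groups where they were high, and the filter of 1 CPM in 2 libraries left 1. At an unadjusted edgeR p under 0.05, 13 were higher and 1 lower, and DESeq2 called none lower. The members' shares changed with the filter. With no filter on low counts 8 of 61 members (13.1%) were called higher in Pax7-nGFP+ iMPC, beside 9.79% of all 23555 genes. There were 7 (11.5%) in ASC, beside 10.4%, and 10 (16.4%) in MEF, beside 9.96%. Members had 10 or more counts by rule, while the 23555 genes include those with fewer. These shares are therefore not from like sets and cannot place the members above all genes. The difference between the shares was not tested. These contrasts share the QSC libraries. Only the QSC pair gives a residual degree of freedom, 1 in all, so each lone library is assumed to vary as the QSC mice do. Every other group is 1 library.

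In pairs of single libraries members were counted by size: at least 4-fold apart with 5 CPM or more in the higher library. Between the iMPC fractions no member was higher in Pax7-nGFP+ (0.134% of all genes) and 3 were lower (4.3% of all genes). These were Hist2h2aa1 (14.8-fold, exact 95% counting interval 8.24 to 29.2), Hist3h2a (4.29-fold, 3.41 to 5.44) and Hist1h2bc (4.27-fold, 3.71 to 4.95). Hist1h2ao was 2.18-fold higher in the positive fraction (2.09 to 2.28), short of the 4-fold. Against ASC, 1 member was higher in Pax7-nGFP+ iMPC (2.29% of all genes), Hist1h2ao at 5.07-fold (4.76 to 5.41). In that pair 7 were lower (5.11% of all genes), with Hist2h2aa1 (39.5-fold), Hist2h3c2 and Hist1h2an (21.2-fold) the farthest apart. Hist2h3c2 had 3 counts in Pax7-nGFP+ iMPC and 119 in ASC, 53.1-fold with an interval of 17.7 to 261.

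Against MEF, Hist1h2ao was again the 1 member higher in Pax7-nGFP+ iMPC (4.46-fold, 4.21 to 4.73; 3.24% of all genes), and 5 were lower (5.67% of all genes), Hist2h2aa1 by 31.7-fold, Hist1h2aj by 14.7-fold and Hist1h2an by 14.0-fold among them. Pax7-nGFP- iMPC had no member higher than MEF (4.73% of all genes) and 2 lower (2.38% of all genes), Hist1h2aj by 24.6-fold and Hist1h2an by 22.9-fold. ASC and MEF had no member past the rule in either direction (4.71% of all genes higher in ASC, 4.07% lower). Between the QSC mice 3 members were higher in mouse 1 (1.69% of all genes) and none lower (0.73% of all genes). They were Hist1h2ap (40.6-fold, 18.4 to 112), Hist1h2aj (16.9-fold, 10.9 to 27.6) and Hist1h2ao (12.9-fold, 9.41 to 18.1), all H2A genes.

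The joint fit also allows an edgeR test of such pairs if both libraries are assumed to vary as the QSC mice do, a test added after the values were seen. Hist2h2aa1 and Hist1h2bc were lower in Pax7-nGFP+ iMPC than in both ASC (log2 fold changes -5.29 ± 1.11 and -3.79 ± 0.81, edgeR adjusted p = 0.0116 and 0.0129) and MEF (-4.97 ± 1.101 and -3.23 ± 0.79, edgeR adjusted p = 0.0139 and 0.0261). Hist3h2a and Hist1h1c were also lower than in ASC (-3.53 and -3.26, edgeR adjusted p = 0.0432 and 0.0480). That made 4 of 49 members lower than ASC (8.16%, beside 2.06% of all genes) and 2 lower than MEF (4.08%, beside 2.13%). The edgeR test called none higher in Pax7-nGFP+ iMPC than ASC (1.02% of all genes) or MEF (1.86% of all genes), and at an unadjusted p under 0.05 there were 1 and 0. Hist1h2ao had adjusted p = 0.442 and 0.432 there in edgeR. Between the iMPC fractions the edgeR test called none higher or lower (0.00584% and 0.391% of all genes), with 0 and 3 at an unadjusted p under 0.05, and the lowest adjusted p was 0.139, for Hist2h2aa1. It called none between Pax7-nGFP- iMPC and MEF (2.2% of all genes higher, 0.339% lower), with 0 higher and 3 lower unadjusted, and none between ASC and MEF (2.79% and 1.88% of all genes), with 1 and 2 unadjusted. DESeq2 was not run on these pairs.

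Sorted by their annotated 3′ ends, members whose transcript ends within 100 bases of the stem-loop took 84.7% of the member counts in Pax7-nGFP+ iMPC and 62% of them in Pax7-nGFP- iMPC. Their share was 37.1% and 17.8% in QSC, 24.3% in ASC and 33.3% in MEF. Hist1h2ao and Hist1h2ap carried this. Without that pair the share was 11.1% and 11.7% in the iMPC libraries, 18.7% and 16.7% in QSC, 7.42% in ASC and 12.3% in MEF. Members whose transcript goes on for 100 bases or more then took 54.5% and 48.1% in the iMPC libraries, 26.5% and 33% of the counts in QSC, 41.9% in ASC and 35.6% in MEF. Members with no stem-loop in their model, Hist1h2bc among them, are in neither set. They held 28.2% and 48.1% of all member counts in QSC, 31.6% in ASC and 27.8% in MEF. Their share was 4.85% in Pax7-nGFP+ iMPC and 16.2% in Pax7-nGFP- iMPC. Members with no matched transcript, also in neither set, held 1.08% to 14.1%. The annotated ends come from GRCm38 models and not from these libraries, and the deposited gene length equals the longest matched transcript in 20 of 53 members.

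**Figure D4:**
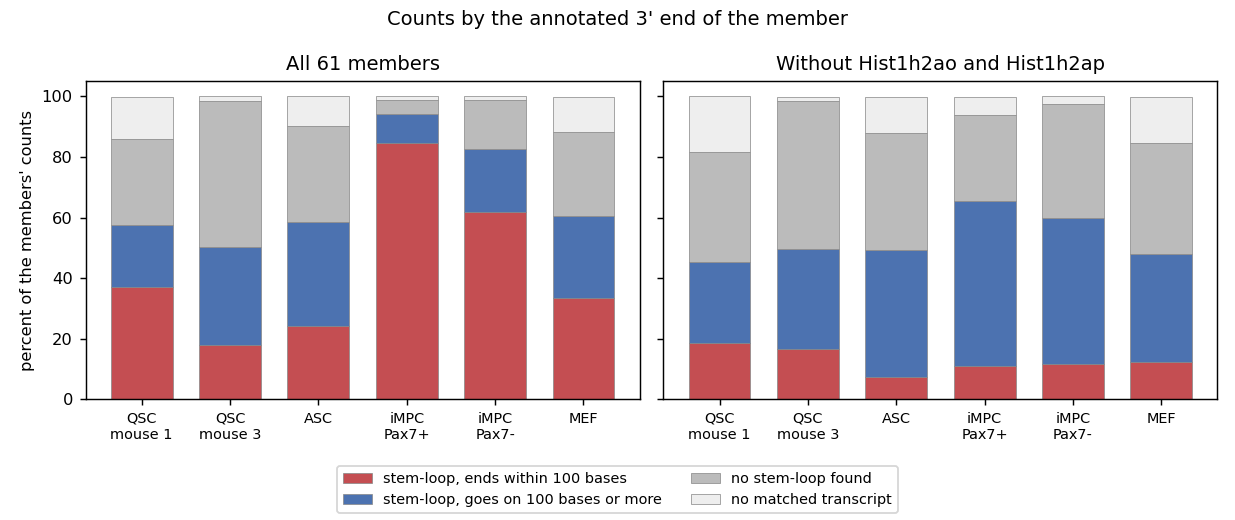
Percent of the member counts of each library (y axis, 6 libraries on the x axis) by the annotated 3′ end of the gene, for all 61 members on the left and without Hist1h2ao and Hist1h2ap on the right; each bar is 1 library. Genes ending within 100 bases of the stem-loop hold 84.7% of the Pax7-nGFP+ iMPC counts on the left and 11.1% on the right.

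Genes of DNA replication and mitosis had their highest sums in Pax7-nGFP+ iMPC and their lowest in QSC from mouse 3, the libraries with the most and the least Hist1h2ao. Of 29 S phase genes tested, 19 rose in Pax7-nGFP+ iMPC, 5 in Pax7-nGFP- iMPC, 6 in ASC and 10 in MEF, and the edgeR test called none lower in any contrast; the median log2 fold changes were 2.41, 1.29, 1.59 and 1.74. Of 15 mitosis genes, 14, 10, 9 and 11 rose in that order, beside 11.3%, 12.1%, 11.8% and 11.3% of all genes. None of the mitosis genes was called lower. Their part in the histone values was not tested. The S phase sum was 1477 and 628 CPM in QSC, 2704 in ASC, 5450 in Pax7-nGFP+ iMPC, 1951 in Pax7-nGFP- iMPC and 2699 in MEF. Mki67, a marker of cycling cells, had 38.4 and 0.317 CPM in QSC, 64.7 in ASC, 94.7 in Pax7-nGFP+ iMPC, 40.1 in Pax7-nGFP- iMPC and 98.1 in MEF. Between these ends Hist1h2ao did not follow the order of the S phase and mitosis sums. Pax7-nGFP- iMPC had the lowest of both sums among the cultured libraries, with mitosis at 1079 CPM against 1218 in ASC and 1631 in MEF. Its Hist1h2ao level, 108 CPM, was above the 46.7 of ASC and the 53.0 of MEF. The sum of the other 59 histone members did not follow the order of the S phase sum either, with its lowest value in Pax7-nGFP+ iMPC. In bulk libraries, a smaller share of cells holding an mRNA and less of it in each cell cannot be told apart.

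**Figure D5:**
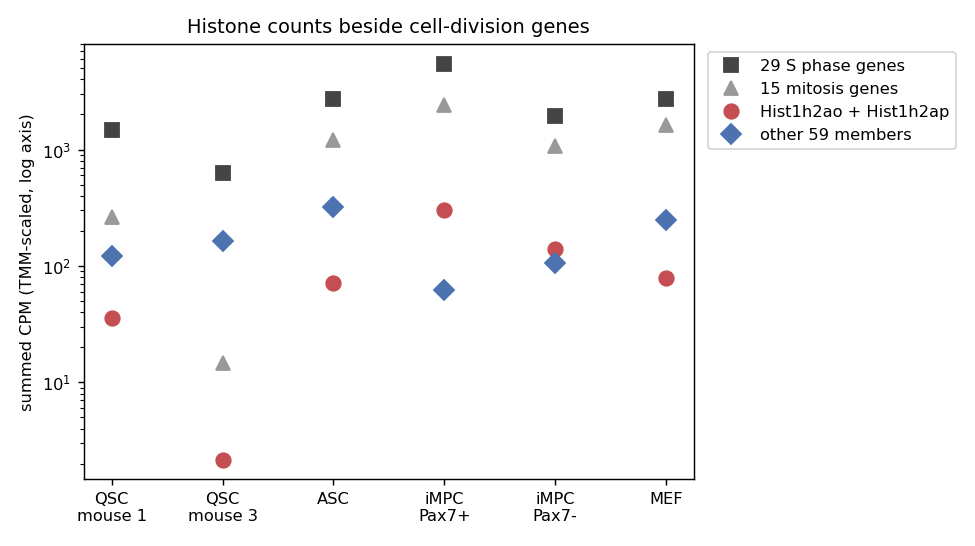
Summed CPM (TMM-scaled, log axis) in the 6 libraries of 29 S phase genes, 15 mitosis genes, Hist1h2ao plus Hist1h2ap, and the other 59 members; each symbol is 1 library. The pair runs from 2.17 CPM in QSC from mouse 3 to 299 in Pax7-nGFP+ iMPC, where the other 59 members are at their lowest, 62.4.

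Of 15 genes that process or degrade histone mRNA, 4 rose in Pax7-nGFP+ iMPC, 1 in Pax7-nGFP- iMPC, 2 in ASC and 1 in MEF, and 1 fell, in ASC. Among all genes tested 11.3%, 12.1%, 11.8% and 11.3% rose in that order, and 8.24% fell in ASC. Of the 15, the gene that fell was Slbp, which encodes the stem-loop binding protein. It had 424 and 260 CPM in QSC, 65.3 in ASC, 150 in Pax7-nGFP+ iMPC, 105 in Pax7-nGFP- iMPC and 109 in MEF, below both QSC libraries in all 4, and its log2 fold change in ASC was -2.39 ± 0.69 (edgeR adjusted p = 0.0213). Sympk, a scaffold of the cleavage complex, rose in all 4 contrasts, by 2.61 to 2.69 on the log2 scale (edgeR adjusted p from 0.0036 to 0.0047). Cstf2, the cleavage stimulation factor subunit CstF64, rose in Pax7-nGFP+ iMPC (2.09 ± 0.57, edgeR adjusted p = 0.0156) and in ASC (1.97 ± 0.57, edgeR adjusted p = 0.0214). Npat, the S phase coactivator of histone genes, had 20.03 and 20.8 CPM in QSC and 35.7 to 46.7 in the cultured libraries, and passed no test.

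Genes of histone variants lie outside the clusters, and most of them are expressed outside S phase too, from polyadenylated mRNAs. H2afx, for H2A.X, is known to make a stem-loop transcript as well, and Cenpa, the centromeric H3, is regulated through the cell cycle. The 11 variant genes summed to 7465 and 5484 CPM in QSC, 2186 in ASC, 3117 in Pax7-nGFP+ iMPC, 2562 in Pax7-nGFP- iMPC and 1924 in MEF. Genes for H3.3 and H2A.Z carried this sum: in QSC from mouse 1 H3f3b stood at 4241 CPM, H3f3a at 1416 and H2afz at 1288. The median over the 11 genes was 83.6 and 57.4 CPM in QSC, 74.0 in ASC, 107 in Pax7-nGFP+ iMPC, 93.2 in Pax7-nGFP- iMPC and 106 in MEF, so it did not put QSC above the others. The edgeR test called 3 of them higher in Pax7-nGFP+ iMPC, 2 in Pax7-nGFP- iMPC, 2 in ASC and 2 in MEF, and 1 lower each in ASC and MEF. Over all genes tested, 11.3%, 12.1%, 11.8% and 11.3% were called higher in that order, and 8.24% and 8.03% lower in ASC and MEF. H3f3b, a gene for the replacement histone H3.3, had 4241 and 2984 CPM in QSC and 598 to 985 in the others, and fell in ASC (-2.44 ± 0.84, edgeR adjusted p = 0.0480) and MEF (-2.60 ± 0.84, edgeR adjusted p = 0.0388). H1fx, the linker histone H1X, rose in all 4 contrasts, as did H2afy2, the macroH2A2 gene, with log2 fold changes from 2.75 to 3.72 and from 3.15 to 4.14. Cenpa had 20.7 and 0.9496 CPM in QSC and rose in Pax7-nGFP+ iMPC (132 CPM; 3.61 ± 0.96, edgeR adjusted p = 0.0134). Of 17 histone chaperone genes, Chaf1a, a subunit of the replication-coupled assembly factor CAF-1, rose in all 4 contrasts and Ubn1, a subunit of the HIRA complex for H3.3, fell in all 4. In Pax7-nGFP+ iMPC 5 more rose, Asf1b, Chaf1b, Ipo4, Supt16 and Ssrp1.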

How the data were processed

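Raw counts per gene and library, and a table of RPKM values, were deposited by the authors; the submitters' processing notes name STAR 2.3.0, HTSeq 0.6.0, Picard 1.100, edgeR and the mm9 build, with no order. Which annotation and strand setting were used, and how multiply mapped reads were treated, is not given in the sources used here. RNA was poly(A)-selected and libraries were directional, per the labels' protocols. The deposited RPKM values were used only for levels between genes.

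Counts from all 6 libraries were fitted together in edgeR 4.0.16 (R 4.3.3; quasi-likelihood F test, TMM scaling, filterByExpr, 1 coefficient a group, Benjamini-Hochberg adjustment over 17116 genes, threshold 0.05; biological coefficient of variation 0.476). The fit was tested on simulated data. Pairs of single libraries were compared by size on log2 CPM with a prior count of 2, with exact 95% intervals that cover counting error only; 3 counts were the floor for a gene at 0. DESeq2 1.42.0, other scalings and other filters were alternatives. Stem-loops were searched in GENCODE M21 coding transcripts and motifs in RefSeq promoters, matched by Ensembl identifier and, where that gave none, by name.

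Members and gene lists were chosen with earlier results of these data known. Named are the 3 members of each class with the highest mean RPKM, members called in a contrast (up to 5 each way), up to 3 each way past the size rule in a pair, members of clusters of 5 or fewer, the variants, Slbp, Npat and up to 4 examples a list. Hist1h2ac, Hist1h2ae, Hist1h2ag, Hist1h2be, Hist1h2bg, Hist2h2aa2 and Mki67 were named after their values were seen.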

Additional observations from a re-analysis of the deposited data

How the results depend on the processing

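No paired analysis was possible because the labels number only the QSC libraries (1 and 3) and the MEF library (1), so no 2 groups share 2 numbers. Scaling by summed counts alone moved the median of all genes against QSC to 0.60 in Pax7-nGFP+ iMPC, 0.86 in Pax7-nGFP- iMPC, 0.59 in ASC and 0.61 in MEF on the log2 scale, from -0.03, 0.15, 0 and 0. Under it 1 member was higher (3 with TMM; 11.7% of all genes) and 1 lower (3 with TMM; 3.1% of all genes) in Pax7-nGFP+ iMPC, 0 higher in Pax7-nGFP- iMPC (12.5% of all genes), 1 higher in ASC (10.9%) and 1 higher in MEF (10.7%); the cause was not tested. With no filter 8 members were higher in Pax7-nGFP+ iMPC (9.79% of all genes), 3 higher (10.6%) and 1 lower (5.5%) in Pax7-nGFP- iMPC, 7 higher in ASC (10.4%), and 10 higher (9.96%) and 1 lower (6.6%) in MEF. Of these calls 0 were members that the filter had left out, and the cause was not tested. DESeq2 called 1 higher in ASC (10.2% of all genes) and 1 higher in MEF (10.3%), and the filter of 1 CPM in 2 libraries left 1 higher in MEF (12.4%). Leaving out a QSC mouse leaves no residual degree of freedom, so members were then counted by size: 1 (without mouse 3) to 3 (without mouse 1) higher and 1 to 2 lower in Pax7-nGFP- iMPC, 2 to 5 higher in ASC, 0 (without mouse 3) to 5 higher in MEF, 3 to 4 higher and 3 to 4 lower in Pax7-nGFP+ iMPC. At 2-fold in place of 4-fold, Pax7-nGFP+ iMPC had 2 members higher than the negative fraction, 4 higher than ASC and 4 higher than MEF; Pax7-nGFP- iMPC had 1 higher and 4 lower than MEF, ASC had 1 higher than MEF, and QSC mouse 1 had 1 lower than mouse 3. At 1 CPM in place of 5, Pax7-nGFP+ iMPC had 2 higher and 13 lower than ASC and 20 lower than MEF, Pax7-nGFP- iMPC 17 lower than MEF, ASC 2 higher and 5 lower than MEF, and QSC mouse 1 had 5 higher and 2 lower than mouse 3. For the counts without a QSC mouse, at 2-fold and at 1 CPM, the share of all genes was not worked out. Those counts therefore cannot tell the members from genes at large. By edgeR in the joint fit, chosen after seeing the data, Pax7-nGFP+ iMPC had 0 members lower than the negative fraction, 0 higher and 4 lower than ASC, and 0 higher and 2 lower than MEF, and Pax7-nGFP- iMPC 0 lower than MEF. The summed CPM with summed counts alone was 112 and 127 in QSC, 433 in ASC, 427 in Pax7-nGFP+ iMPC, 296 in Pax7-nGFP- iMPC and 376 in MEF. With DESeq2's size factors it was 162 and 175 in QSC, 377 in ASC and 234 in Pax7-nGFP- iMPC. Over members with 100 or more counts it was 150.1 and 159 in QSC and 308 in MEF. Without the member with the most counts, Hist1h2ao, it was 132 in QSC from mouse 1, 343 in ASC, 125 in Pax7-nGFP+ iMPC, 136 in Pax7-nGFP- iMPC and 274 in MEF. Without Hist1h2ao and Hist1h2ap, chosen after seeing the data, it was 121 in QSC from mouse 1, 318 in ASC, 62.4 in Pax7-nGFP+ iMPC, 105 in Pax7-nGFP- iMPC and 249 in MEF. Depth limits the low members: 8 to 28 members had 3 counts or fewer in a library, so their fold changes are bounds or have wide counting intervals.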
